A study of Mus musculus with 9 samples.

Results

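The genes that break purines down to urate, and that salvage, degrade or carry the products, were followed in the liver of fructose-fed rats. The set holds 9 genes, found in the count table by their symbols Ampd2, Ampd3, Nt5e, Ada, Pnp, Hprt1, Xdh, Uox and Slc2a9, out of 19686 genes listed there. Each of the 9 had at least 1 count in some library. The RNA came from the liver of male Wistar rats in 3 groups of 3 rats. Rats of the control group drank purified water and were given saline by gavage. Rats of the model group drank 15% fructose for 8 weeks and were given saline. Rats of the HME group drank the same fructose and were given 1.8 g/kg of the 50% methanol extract (HME) of Danggui-Shaoyao-San, a Chinese herbal formula abbreviated DSS. The labels give no genetic difference between the groups. The control group differed from the HME group in both the drink and the extract.

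Fructose is phosphorylated in the hepatocyte by ketohexokinase, which spends ATP quickly, and the AMP that accumulates can be broken down. AMP is deaminated to IMP or dephosphorylated to adenosine, the nucleosides are split to free bases, and xanthine dehydrogenase oxidises hypoxanthine and xanthine to urate. In the rat, unlike in humans, urate is then degraded by urate oxidase, an enzyme of liver peroxisomes, so the liver both makes and removes urate. The comparisons below asked how the transcripts of these enzymes stood after fructose and after fructose with the extract. They measured RNA only, and say nothing of AMP, urate or enzyme activity.

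Total counts were between 14345819 and 26837227 per library. Levels are given as CPM, counts per 1000000 counts of the TMM-normalised library size, and levels of different genes were not compared because no rat transcript lengths were used. Each comparison was fitted with edgeR on the 6 libraries of its 2 groups, and calls required 0.5 or more on the log2 scale in either direction together with an FDR no higher than 0.01. FDR values and standard errors (SE) in the text come from edgeR unless another tool is named. The SE is that of the log2 fold change. Both rest on the variation between the 3 rats within each group, which edgeR moderates across genes. Model replicate 1 stood apart. Its counts differed from those of the other model rats with a chi-square per gene of 60.5 and 70.8, against 19.6 to 37.0 for the other pairs within groups. This chi-square was taken on raw counts and grows with depth, and model replicate 1 was the deepest library (26837227 counts). The part of depth in the difference was not tested. Values without model replicate 1 are given where they bear on a gene. The 8 hepatocyte markers were all present and summed to between 116800 and 185400 CPM in every rat. None of the marker genes of red blood cells, leukocytes, Kupffer, endothelial, stellate, bile duct or proliferating cells, or of intestine and pancreas, was called in any comparison.

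None of the 9 genes was called in any of the 3 comparisons. Between the model and control groups, 8 of the 9 passed the filter on low counts and 0 were called by edgeR, where 0.0801% of all genes tested were called. At an unadjusted p under 0.05 there was 1 (Xdh, lower), where 13.2% of all genes reached that p. DESeq2 also called 0. Between the HME and model groups 7 were tested and 0 were called (0.136% of all genes), 0 reached an unadjusted p under 0.05 (8.02%), and DESeq2 called 0. Between the HME and control groups 8 were tested and 0 were called (1.48%), Xdh (lower) and Nt5e (higher) reached an unadjusted p under 0.05 (24.3%), and DESeq2 called 0 at the same fold. A fold change under the threshold of 0.5 kept both genes out of the DESeq2 calls, since DESeq2 gave them an FDR of 0.00969 (Xdh) and 0.00948 (Nt5e).

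AMP deaminases open the route from AMP to IMP. Ampd2 (ENSRNOG00000019240), the form known from liver, was at 44.2, 54.4 and 66.0 CPM in the control rats, 46.8, 53.6 and 55.5 CPM in the model rats and 49.2, 40.0 and 46.2 CPM in the HME rats. The groups overlapped in all comparisons. The log2 fold change was -0.08 (SE 0.168, FDR 0.869) for model against control, with a 95% interval from -0.47 to 0.30. It was -0.20 (interval -0.51 to 0.12, FDR 0.815) between HME and model and -0.28 (interval -0.63 to 0.06, FDR 0.294) between HME and control. Ampd3 (ENSRNOG00000018262), known as the erythrocyte form, was near the limit of detection. It had 17, 10 and 11 counts in the control rats, 10, 6 and 8 in the model rats, and 6, 17 and 5 in the HME rats. On the CPM scale every model rat (0.386 to 0.494 CPM) was below every control rat (0.597 to 0.732 CPM), but the log2 fold change of -0.61 had an interval from -1.54 to 0.31 (FDR 0.558). In the HME group 1 rat, replicate 2, was at 0.917 CPM and the others at 0.326 and 0.258 CPM, so that the log2 fold change against control was -0.42 (FDR 0.675) and was -1.18 without that rat, -0.20 without replicate 1 and -0.10 without replicate 3. Ampd3 did not pass the filter between HME and model. Because Ampd3 is an erythrocyte form, the red blood cell markers are set beside it. Their sum was between 447 and 1199 CPM in the control rats, 401 and 611 CPM in the model rats and 363 and 735 CPM in the HME rats. The median sum was 475 CPM in control, 604 CPM in model and 711 CPM in HME. The part of blood cells in the Ampd3 counts was not tested.

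Nt5e (ENSRNOG00000011071) encodes the ecto-5'-nucleotidase CD73, which releases adenosine from AMP outside the cell. Its level was 118, 112 and 108 CPM in the control rats, 128, 147 and 133 CPM in the model rats and 154, 138.5 and 156 CPM in the HME rats. Every fructose-fed rat, with or without the extract, was above every control rat, and model and HME rats overlapped. The group means were 112 ± 4.99 CPM in control, 136 ± 9.76 CPM in model and 149.7 ± 9.77 CPM in HME (SD, n = 3). Compared with the control group, the log2 fold change of Nt5e was 0.27 (SE 0.122, interval -0.01 to 0.55, FDR 0.388) for model and 0.41 (SE 0.105, interval 0.17 to 0.64, FDR 0.0482) for HME. Between HME and model it was 0.15 (interval -0.15 to 0.44, FDR 0.85). The comparisons with control share the control rats and are not independent. With library size alone as the scaling, the model and control rats overlapped for Nt5e and its log2 fold changes were 0.13 (FDR 0.731) and 0.27 (FDR 0.155). That scaling moved the median of all genes by -0.15 for model and -0.14 for HME against control.

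Adenosine deaminase and purine nucleoside phosphorylase take adenosine and the nucleosides on to free bases. Ada (ENSRNOG00000010265) was low, at 2.24, 3.70 and 2.93 CPM in the control rats, 1.84, 3.21 and 1.85 CPM in the model rats and 1.63, 3.13 and 2.43 CPM in the HME rats. The 3 groups overlapped, and the log2 fold changes of -0.37, 0.07 and -0.30 (model against control, HME against model, HME against control) had FDR values of 0.687, 0.972 and 0.604. Their intervals reached from -1.14 to 0.41, from -0.75 to 0.90 and from -0.99 to 0.40, so a change of 1 log2 unit downwards lay inside the first of them. Leaving out 1 rat moved the values of Ada to between -0.67 (without model replicate 2) and -0.17 (without control replicate 2) for model against control. For HME against control they moved to between -0.53 (without HME replicate 2) and -0.08 (without HME replicate 1).

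Pnp (ENSRNOG00000009982), which cleaves inosine and guanosine to hypoxanthine and guanine, was at 277.5, 254 and 301 CPM in the control rats. It was at 248, 237 and 200.5 CPM in the model rats and at 259, 223 and 251 CPM in the HME rats. Every model rat was below every control rat, by a small gap, and the HME rats lay across both groups. The log2 fold change was -0.28 (SE 0.145, interval -0.61 to 0.05, FDR 0.466) for model and -0.18 (interval -0.46 to 0.09, FDR 0.385) for HME compared with control, and 0.10 (interval -0.22 to 0.43, FDR 0.899) between HME and model.

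Hprt1 (ENSRNOG00000048561), the salvage enzyme that returns hypoxanthine and guanine to nucleotides, could not be assessed. The row carrying this symbol had 1, 5 and 5 counts in the control rats, 3, 6 and 7 in the model rats and 3, 4 and 7 in the HME rats, and did not pass the filter in any comparison. A further row, LOC103689983 (ENSRNOG00000031367), has the same enzyme description and had 11, 9 and 7, then 15, 6 and 3, then 5, 9 and 10 counts. Reads shared by near-identical copies can be split or dropped in counting, so the low Hprt1 counts are uncertain as a level of the enzyme's RNA.

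Xdh (ENSRNOG00000007081), the enzyme that makes urate, had a log2 fold change away from 0 of similar size to that of Ampd3 in both comparisons with control, and at far higher counts. Its level was 249.6, 202 and 251 CPM in the control rats, 162, 188 and 107 CPM in the model rats and 170.0, 178 and 162 CPM in the HME rats. All 6 fructose-fed rats were below all 3 control rats, and the HME values lay inside the range of the model values. Group means were 234 ± 27.6 CPM in control, 152 ± 41.2 CPM in model and 170.2 ± 7.89 CPM in HME (SD, n = 3). The log2 fold change in the model group was -0.62 (SE 0.212, interval -1.11 to -0.14, FDR 0.262), and it was -0.42 without model replicate 3, the lowest rat, and -0.69 without model replicate 1. For HME it was -0.47 compared with control (SE 0.122, interval -0.74 to -0.19, FDR 0.051). The SE was smaller in the HME comparison, where the 3 treated rats were close together. HME against model gave 0.17 (interval -0.29 to 0.63, FDR 0.888). Whether Xdh was lower because each cell held less of its RNA or because fewer cells held it cannot be told apart in bulk liver, and this applies to each gene here.

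Uox (ENSRNOG00000016339), the urate oxidase, was at 798, 939 and 921 CPM in the control rats, 785, 589.9 and 709 CPM in the model rats and 624, 586 and 916 CPM in the HME rats. The model rats were all below the control rats, although the highest model rat was close to the lowest control rat. In the HME group replicates 1 and 2 were below all control rats and replicate 3 was among them. The log2 fold change was -0.35 (SE 0.166, interval -0.73 to 0.03, FDR 0.42) for model and -0.32 (interval -0.73 to 0.08, FDR 0.308) for HME compared with control. The latter was -0.54 without HME replicate 3 and -0.20 without HME replicate 2. Between HME and model it was 0.03, with an interval from -0.45 to 0.52 (FDR 0.977).

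Slc2a9 (ENSRNOG00000005302), the urate carrier GLUT9 that moves urate into the hepatocyte, was at 36.1, 63.6 and 43.3 CPM in the control rats, 41.5, 49.4 and 49.5 CPM in the model rats and 61.1, 60.3 and 45.0 CPM in the HME rats. The control rats spanned a wider range than the model rats did and the groups overlapped throughout. Its log2 fold change was -0.03 (interval -0.51 to 0.45, FDR 0.967) in the model group, and 0.21 (interval -0.29 to 0.72, FDR 0.602) in the HME group compared with control. HME against model gave 0.25 (interval -0.11 to 0.62, FDR 0.791), the largest absolute value of any member in that comparison.

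**Figure D1:**
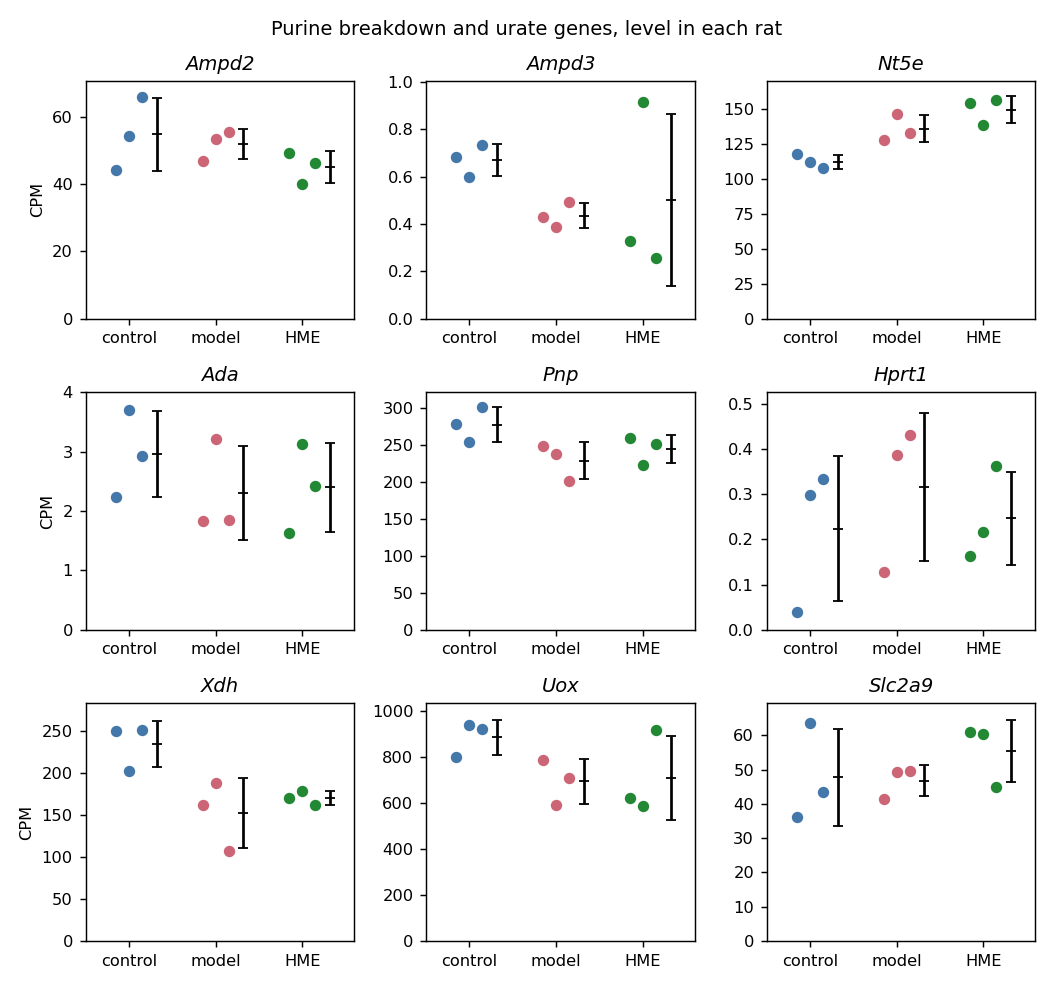
Level of the 9 genes in CPM (vertical axis, linear, from 0) in each rat of the control, model and HME groups, with 1 point per rat and the mean ± SD beside the 3 points. Xdh is at 202 CPM or more in every control rat and at 188 CPM or less in every fructose-fed rat, and Nt5e is at 118 CPM or less in every control rat and at 128 CPM or more in every fructose-fed rat.

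Read over the 9 genes, model against control had log2 fold changes below 0 for 7 of the 8 tested genes, with a median of -0.32 beside -0.001 over all genes tested. The groups did not overlap for 5 of the 8, namely Xdh, Uox, Pnp and Ampd3 (lower) and Nt5e (higher), where 21.1% of all genes did not overlap. Without model replicate 1 the log2 fold changes were -0.69 (Xdh), -0.47 (Uox), -0.36 (Pnp), 0.30 (Nt5e) and -0.61 (Ampd3), at an FDR between 0.189 and 0.26 for the first 4 and of 0.649 for Ampd3. With library size alone the separation held for the 4 lower genes and not for Nt5e, where 16.8% of all genes were lower without overlap and 5.36% higher. Between HME and model 6 of 7 log2 fold changes were above 0, with a median of 0.10 beside 0.001, and the groups overlapped for all 7, where 14.0% of all genes did not. Between HME and control 6 of 8 were below 0, with a median of -0.29 beside -0.008. There the groups did not overlap for Xdh and Nt5e, against 30.2% of all genes, and with library size alone Pnp, Uox and Ampd2 (lower) also did not overlap. That scaling moved the median of all genes by -0.14 in this comparison, and under it 24.3% of all genes were lower without overlap and 7.24% higher. The comparisons have groups in common, so the model libraries that lay low against control also enter the comparison with HME.

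**Figure D2:**
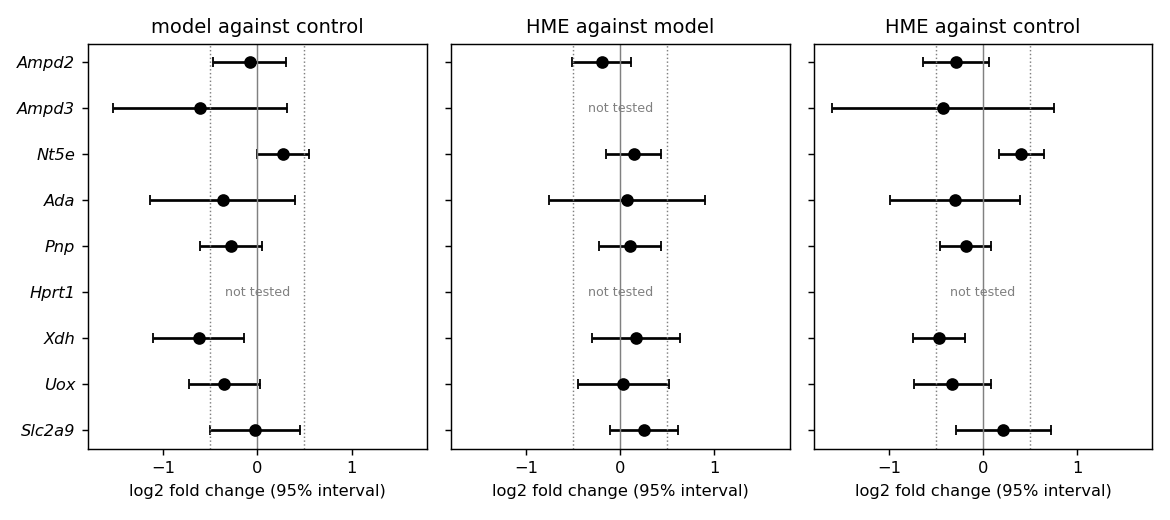
Log2 fold change (horizontal axis) of each gene with its 95% interval from edgeR in the 3 comparisons, with dotted lines at the threshold of 0.5 in either direction. The intervals of Xdh (both comparisons with control) and of Nt5e (HME against control) do not reach 0, and those of all 7 genes tested between HME and model do.

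The balance of the urate-making and the urate-degrading transcript was taken within each library, where it does not depend on the scaling. For each Xdh count there were 3.20, 4.64 and 3.67 Uox counts in the control rats, 4.84, 3.14 and 6.62 in the model rats and 3.67, 3.29 and 5.64 in the HME rats. The ranges overlapped, and the spread within the model and HME groups was wider than in the control group. The mean log2 ratio of Xdh to Uox was -1.92 ± 0.271 in control, -2.22 ± 0.540 in model and -2.03 ± 0.412 in HME (SD, n = 3). The differences were -0.30 for model against control (exact permutation test, two-sided, p = 0.5), 0.19 for HME against model (exact permutation p = 0.7) and -0.11 for HME against control (exact permutation p = 0.7), and 3 rats against 3 cannot give a p below 0.1. Xdh and Uox both had lower means in the fructose-fed groups, and no difference in their ratio was detectable with 3 rats a group.

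Among pairs of the 7 genes with a value in all comparisons, Xdh and Pnp varied most alike over the 9 libraries, with a Pearson r of 0.87, and of 0.70 once the group means were removed. Xdh and Uox had an r of 0.31, and of -0.36 within groups. The points share libraries and scaling, and the values are a description. Over all other genes with a mean of at least 1 CPM (11688 genes), those most like Xdh over the 9 libraries were Layn (layilin, r = 0.978), Hmgn1 (a nucleosome-binding protein, 0.953) and Notch3 (a Notch receptor, 0.951). Those most like Slc2a9 were Def8 (0.909), LOC294154 (0.878) and Adck2 (0.874).

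The genes around these steps were taken from lists of purine synthesis, salvage and nucleotide breakdown, urate breakdown and molybdenum enzymes, transport, and fructose entry. Of purine synthesis 0 of 17 tested genes were called for model against control, with a median log2 fold change of -0.12, 0 of 17 between HME and model (median -0.11) and 0 of 17 between HME and control (median -0.07). In the model group Atic, which completes IMP synthesis, had -0.59 (FDR 0.142), Gart, an earlier enzyme of the route, -0.39 (FDR 0.293) and Guk1, guanylate kinase, 0.53 (FDR 0.286). For HME against model Pfas, a further enzyme of the route, had 0.63 (FDR 0.491), Gart 0.40 (FDR 0.523) and Prpsap1, which binds the first enzymes of the route, -0.39 (FDR 0.384). Between HME and control Adssl1, an adenylosuccinate synthase, had -0.88 (FDR 0.0384) and Adsl, the lyase after it, -0.50 (FDR 0.0438), which did not reach the FDR threshold of 0.01.

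Of 20 tested genes of salvage and nucleotide breakdown, 0 were called for model against control (median -0.14) and 0 between HME and model (median -0.05). Between HME and control, where 1.48% of all genes were called, 1 was called, lower (median -0.01). It was Gda, guanine deaminase, which turns guanine into xanthine and so feeds the substrate of Xdh. Gda was at 59.5, 56.6 and 65.6 CPM in the control rats, 11.0, 33.1 and 28.4 CPM in the model rats and 24.4, 29.2 and 25.8 CPM in the HME rats. Every fructose-fed rat was below every control rat. Gda fell by 1.20 on the log2 scale in the HME group (SE 0.112, FDR 0.000736). For model against control it had -1.34 (SE 0.348, FDR 0.151), where model replicate 1 was far below the other model rats, and -0.99 without that rat. DESeq2 called Gda for model against control (FDR 0.00535). Between HME and model the log2 fold change of Gda was 0.15 (interval -0.67 to 0.96). In the fit of all 9 libraries the HME call was lost (FDR 0.0689). Entpd8, a nucleoside triphosphate diphosphohydrolase of the hepatocyte canalicular membrane, was at 19.1, 26.4 and 29.0 CPM in the control rats and at 37.6 CPM or more in every fructose-fed rat, with log2 fold changes of 0.93 (FDR 0.109) for model and 0.79 (FDR 0.032) for HME. DESeq2 called Entpd8 against control in model (FDR 0.00493) and in HME (FDR 0.00194), and edgeR with no filter called it in HME (FDR 0.00703). Nt5c2, a cytosolic 5'-nucleotidase acting on IMP and GMP, had a log2 fold change of -0.88 (FDR 0.0336) in the HME group compared with control.

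Xdh needs the molybdenum cofactor, as do the aldehyde oxidases and sulfite oxidase, and Urad encodes a decarboxylase of a later step of urate breakdown than that of Uox. Of 9 tested genes of that list 0 were called for model against control (median -0.13) and 0 between HME and model (median -0.02). Between HME and control 1 was called, lower (median -0.19), where 1.48% of all genes were called. The gene called was Mocs2, which encodes both subunits of molybdopterin synthase. Mocs2 was at 106, 126 and 113 CPM in the control rats, 117.5, 75.6 and 82.1 CPM in the model rats and 57.5, 60.4 and 60.1 CPM in the HME rats. The HME rats were below all others, and Mocs2 fell by 0.96 on the log2 scale compared with control (SE 0.105, FDR 0.00165), although in the fit of all 9 libraries its FDR was 0.0134. Between HME and model the log2 fold change of Mocs2 was -0.62 (FDR 0.38), and -0.40 (FDR 0.309) without model replicate 1. Gphn, gephyrin, which inserts the molybdenum, had 0.58 (FDR 0.012) in the HME group compared with control, the opposite sign to Mocs2.

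Aox3, an aldehyde oxidase of the same enzyme family as Xdh, was at 233, 175 and 197 CPM in the control rats, 63.4, 53.9 and 92.6 CPM in the model rats and 132, 158 and 151 CPM in the HME rats. The 3 groups did not overlap, and the HME rats lay between the others. The log2 fold change was -1.53 (SE 0.220, FDR 0.0292) for model against control, 1.08 (SE 0.211, FDR 0.1) between HME and model and -0.46 (FDR 0.0743) between HME and control, none of which passed the FDR threshold in this edgeR fit. For model against control Aox3 was called by edgeR with no filter on low counts (FDR 0.00146), by edgeR with all 9 libraries in one fit (FDR 0.00878) and by DESeq2 (FDR 3.86e-08), but not once any 1 rat was left out. For HME against model Aox3 was called by DESeq2 alone (FDR 0.00052). Aox1, a related oxidase, was at 550 to 642 CPM in the control rats, 591 to 699.6 CPM in the model rats and 736 to 1005 CPM in the HME rats, with a log2 fold change of 0.57 (FDR 0.0474) in the HME group compared with control. Urad was at 129.8, 182 and 154 CPM in the control rats, 129, 96.8 and 120 CPM in the model rats and 97.8, 76.6 and 75.5 CPM in the HME rats. The control rats were above all fructose-fed rats, and the log2 fold change was -0.43 (FDR 0.344) for model and -0.90 (FDR 0.0118) for HME.

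**Figure D3:**
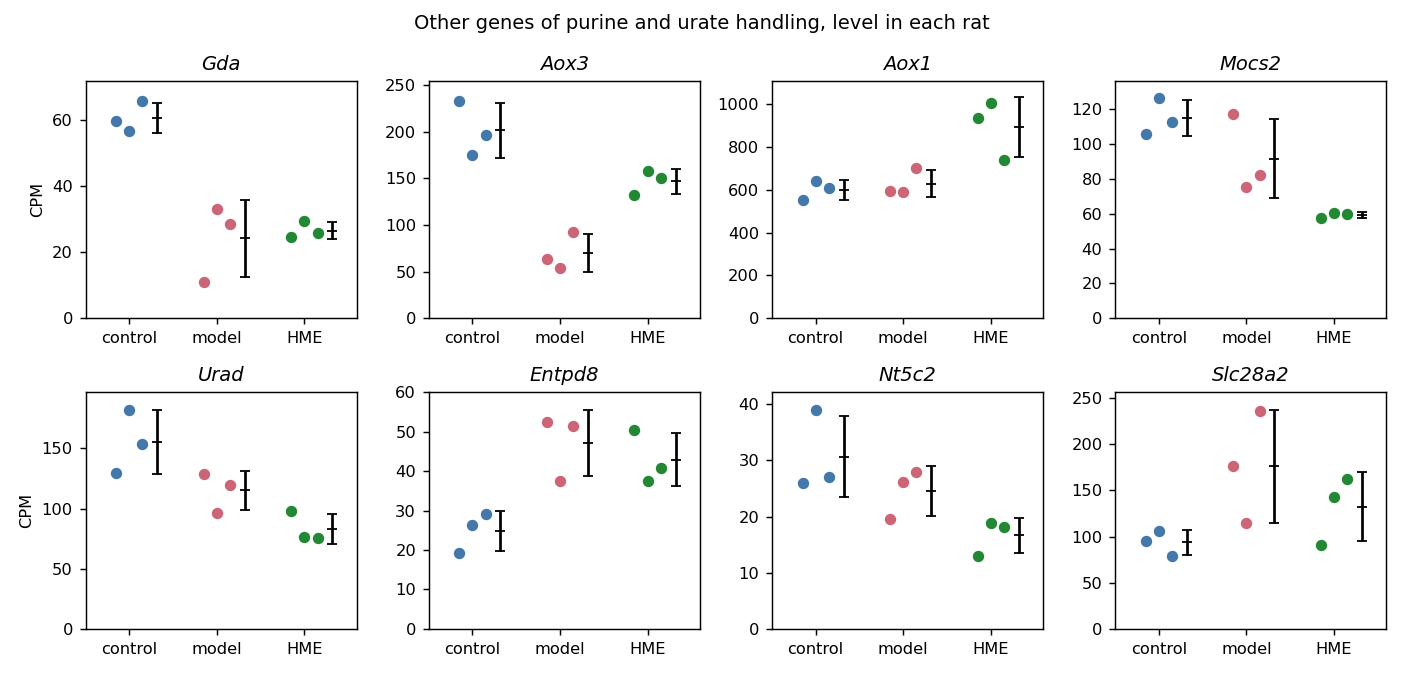
Level in CPM (vertical axis, linear, from 0) of 8 further genes of purine and urate handling in each rat, with 1 point per rat and the mean ± SD beside them. Gda is at 56.6 CPM or more in the control rats and at 33.1 CPM or less in all fructose-fed rats, and Aox3 in the HME rats lies between the model and the control rats.

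Of the urate and nucleoside transporters 0 of 12 were called for model against control (median 0.03), 0 of 11 between HME and model (median 0.04) and 0 of 12 between HME and control (median 0.04). Slc28a2, a concentrative carrier of purine nucleosides, was at 95.7, 106 and 79.5 CPM in the control rats and at 177, 115 and 236 CPM in the model rats, with a log2 fold change of 0.91 (FDR 0.179). The largest among them between HME and control was Slc22a8, an organic anion transporter that accepts urate, at 0.66 (FDR 0.0569).

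The 5 genes that bring fructose into the pathway had a median of 0.06 (log2 fold change) for model against control, where 0 were called. In the HME group 2 of 5 were called lower against model (median -0.96), where 0.136% of all genes were called. Against control 2 of 5 were also called lower (median -0.75), where 1.48% of all genes were called, and these comparisons share the HME rats. The genes called in both were Tkfc, triokinase, which phosphorylates glyceraldehyde from fructose, and Slc2a5, the fructose carrier GLUT5. Tkfc was at 700.2, 799 and 837 CPM in the control rats, 716, 625.5 and 769 CPM in the model rats and 132, 136 and 133 CPM in the HME rats, and fell by 2.55 on the log2 scale compared with control (FDR 2.68e-05). Slc2a5 was at 15.1, 21.6 and 20.7 CPM, 30.2, 22.3 and 33.1 CPM, and 5.98, 4.91 and 3.67 CPM in the same order, and fell by 1.98 on the log2 scale compared with control (FDR 0.00155). Against the model group the log2 fold changes were -2.39 for Tkfc (FDR 0.00163) and -2.55 for Slc2a5 (FDR 0.00434). These calls were lost without HME replicate 1 (FDR 0.0146 for Tkfc) or without HME replicate 3 (0.0105 for Tkfc), and for Slc2a5 without any single rat other than model replicate 2 (FDR 0.0201 to 0.0453), while the fold changes with each rat left out stayed between -2.48 and -2.32 for Tkfc and between -2.73 and -2.38 for Slc2a5.

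**Figure D4:**
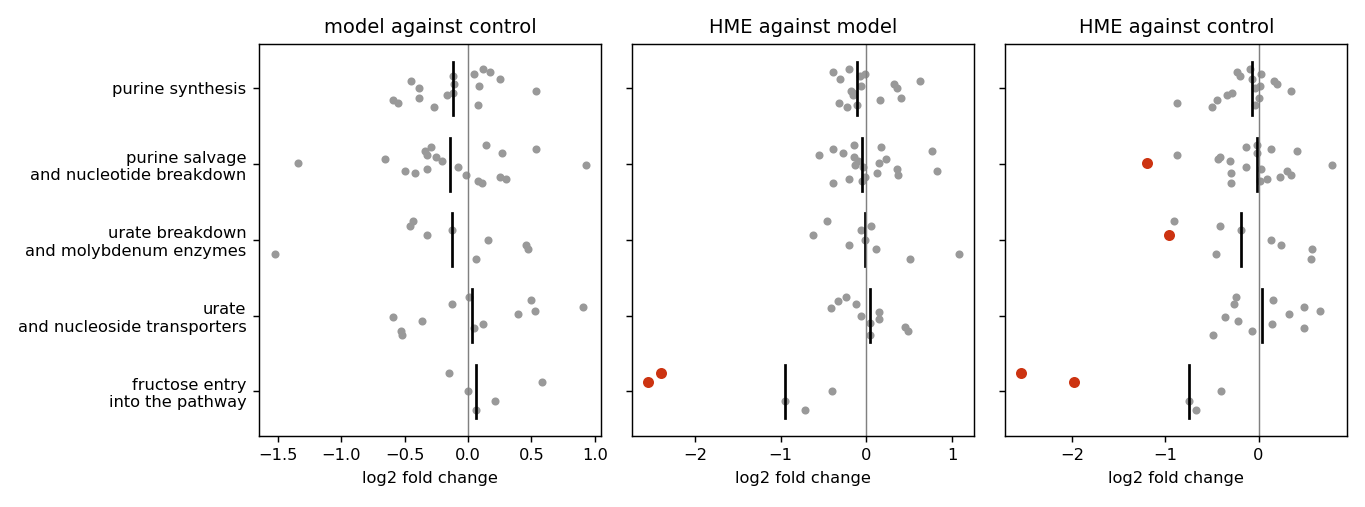
Log2 fold change (horizontal axis, with its own range in each panel) of the tested genes of 5 lists, with 1 point per gene, red points for genes called by edgeR and a vertical bar at the median of each list. The fructose entry genes lie below 0 in both HME comparisons, and the medians of the other lists lie between -0.19 and 0.04.

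Beside the members, the markers of proliferating cells summed to between 6.12 and 13.3 CPM in the model rats and 1.09 and 4.18 CPM in the HME rats. Of these low markers 4 of 4 tested had an unadjusted p under 0.05 for a lower value in HME, where 8.02% of all genes reached that p. Of 8 hepatocyte markers 3 were lower and 0 higher at that p for model against control (13.2% of all genes), but the median log2 fold change of the 8 was 0.12. Between HME and model 2 were higher and 0 lower (8.02%, median 0.23), and between HME and control 3 were higher and 1 lower (24.3%, median 0.25). The hepatocyte markers summed to between 116800 and 144500 CPM in the control rats and 138000 and 185400 CPM in the model rats. In the HME rats their sum was between 143500 and 176600 CPM. The endothelial markers summed to between 103 and 298 CPM in the model rats, 161 and 256 CPM in the control rats and 160 and 220.0 CPM in the HME rats. The highest red blood cell sum was in the control group, and Krt7 (a bile duct marker) in the HME group and Cpa1 (pancreas) in the model and HME groups were at 0. The part of cell composition in the values of the 9 genes was not tested.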

How the data were processed

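Liver RNA of 9 rats, 3 each of the control, model and HME groups, was enriched for mRNA and sequenced on an Illumina platform. Reads were aligned with HISAT2 and assigned to exons by unstranded counting in HTSeq 0.6.1, on the rat build Rnor_6.0 according to the submitters' processing notes, and the authors deposited whole-number counts per gene without normalization. Genes overlapping on opposite strands and near-identical copies can therefore share reads. The labels name the mouse as organism but Wistar as strain, and the identifiers are rat, and they were treated as rat samples. DSS is the label of the treated group, and the methods state that the HME extract was taken to transcriptomics. A table of assembled transcripts was not used because no unit is given for it.

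Each comparison was fitted on its 6 libraries with edgeR 4.0.16 (R 4.3.3): filterByExpr, TMM, robust glmQLFit and the two-sided glmQLFTest, with Benjamini-Hochberg FDR over all genes tested (12486, 12502 and 12633 genes). Calls used the thresholds of the study, 0.5 or more on the log2 scale in either direction and an FDR no higher than 0.01. The test was not that of the study, which named DEGseq and DESeq. Over all genes edgeR called 10 for model against control and 17 for HME against model, and the study reported many more transcripts for both. CPM were scaled to TMM sizes over 9 libraries (factors 0.871 to 1.14). Total counts per library were 14345819 to 26837227. The fits were tested on simulated data.

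The 9 genes and the gene lists were chosen with earlier results of these data known. All 9 genes are named, and of each list the genes called in any comparison, with up to 4 per comparison of the largest change at an unadjusted p under 0.05, without overlap and with a mean of at least 1 CPM. Tkfc, Slc2a5, Gda, Mocs2, Atic, Gart, Guk1, Pfas, Prpsap1, Adssl1, Adsl, Entpd8, Nt5c2, Gphn, Aox3, Aox1, Urad, Slc28a2 and Slc22a8 were taken from these. LOC103689983 was added after its values were seen. Adss1, Adss2, Slc17a1, Slc16a9 and Slc29a2, and among the markers Hbb-bs, Cd79a, Pecam1, Pnlip and Prss1, were not matched. Of the 12 red blood cell markers 10 were matched, so Hbb-bs was not the only one of them missing. The alternatives were DESeq2 size factors, library size alone, no filter, a minimum of 10 counts in each library, the test of DESeq2 1.42.0, a joint fit of all 9 libraries, a block on the replicate number, an FDR of 0.05, no minimum fold, and each rat left out. No sequence is given, because no rat genome or protein table was used here.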

Additional observations from a re-analysis of the deposited data

How the results depend on the processing

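Under every alternative 0 of the 9 genes were called in each of the 3 comparisons, while the calls over all genes ranged from 0 to 256 (model against control), 2 to 147 (HME against model) and 86 to 804 (HME against control). The highest counts came from DESeq2 in the first 2 comparisons and from an FDR of 0.05 in the third. Directions of the members turned only where the log2 fold change of the main fit lay between -0.08 and 0.17. Turned values reached 0.24 for Slc2a9 (model against control) and -0.19 for Uox (HME against model). For model against control, Slc2a9 was 0.008 with the replicate number as a block and -0.19 to 0.24 with each rat left out, and Ampd2 was -0.21 to 0.079. For HME against model, leaving out each rat gave -0.028 to 0.34 for Xdh, -0.19 to 0.15 for Uox and -0.16 to 0.38 for Ada. No member turned for HME against control. The log2 ratio of Xdh to Uox was -0.58 to -0.04 (model against control), -0.066 to 0.47 (HME against model) and -0.26 to 0.13 (HME against control) with each rat left out. The cause of these changes was not tested. With library size alone the median of the members was -0.46 for model against control and -0.42 for HME against control.

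In what follows, the calls among all genes are in brackets, over the number tested in the main fit unless another is given. Of the list genes, 0 were called for model against control (10 of 12486). The alternatives gave 1 with no filter (71 of 19109), 3 with DESeq2 (256), 1 with all 9 libraries (34) and 1 at an FDR of 0.05 (75). For HME against model 2 were called (17 of 12502). The alternatives gave 1 with library size alone (11), 5 with DESeq2 (147) and 1 with the replicate number as a block (7). With each rat left out 0 to 2 were called (2 to 12 of 12725 to 12774). For HME against control 4 were called (187 of 12633). The alternatives gave 7 with library size alone (238), 9 with no filter (489 of 19132) and 13 with DESeq2 (769). They gave 2 with all 9 libraries (116) and 13 at an FDR of 0.05 (804). Same-numbered libraries were not more alike than others, since their deviations from the group means had correlations of -0.23 to -0.02, against -0.14 to 0.21 for the others. With 3 rats a group these correlations depend on one another, so they cannot decide whether the samples were paired. The block changed no call of a member. Aox3 was the list gene called for model against control with no filter, with all 9 libraries and at an FDR of 0.05. With DESeq2 the 3 list genes called there were Gda, Entpd8 and Aox3. Of the genes named above, DESeq2 also called Adssl1, Nt5c2, Entpd8, Urad, Gphn, Aox1 and Slc22a8 for HME against control. Ampd3 and Hprt1 had 17 counts or fewer in every library, so their values carry a large counting error.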
